A study of Mus musculus with 6 samples.

Results

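The Toll-like receptor genes examined here were Tlr1, Tlr2, Tlr3, Tlr4, Tlr5, Tlr6, Tlr7, Tlr8, Tlr9 and Tlr13. They were chosen by gene symbol and are 10 of the 55487 genes in the count table. RNA was sequenced from 6 subcutaneous tumors grown from CT26.WT, a colon carcinoma line of BALB/c origin, in immunocompetent BALB/c mice of wild-type genotype. The control group (3 tumors) came from mice given PBS through the tail vein, and the IFN-γ group (3 tumors) from mice given repeated tail vein injections of 100 µL of mouse IFN-γ at 100 ng/ml. The methods describe male mice bought at 4 weeks of age for both groups, and the age at collection is not given in the sources used here. Tumors in both groups hold the implanted line together with host stroma and immune cells, so each value is an average over all of these. In such bulk samples, fewer cells of a type and less RNA per cell cannot be told apart. Neither the labels nor the methods tie each library to a separate mouse, so the p-values measure the spread between these 6 samples only.

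Toll-like receptors are membrane proteins that recognize conserved parts of microbes and material from damaged cells through a domain of leucine-rich repeats. Tlr1, Tlr2, Tlr4, Tlr5 and Tlr6 act mainly at the cell surface on lipids, lipopeptides and flagellin, while Tlr3, Tlr7, Tlr8, Tlr9 and Tlr13 act in endosomes on nucleic acids. They signal through the adaptors Myd88 and Ticam1 to NF-κB and interferon regulatory factors, and macrophages, monocytes and dendritic cells are known for carrying many of them.

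Among the 8 genes found in RefSeq's promoter table for build GRCm38.p6, 3 had the letters GAGGAAG in the 250 bases before a start site on either strand. These letters are the core bound by PU.1, the myeloid transcription factor encoded by Spi1. They occurred before at least 1 start site of 12% of the 27025 genes in the table. The 3 stretches printed here are those with this match, restricted to bases before every annotated exon, and they belong to 3 of the receptors that rose when IFN-γ tumor 3 was left out. Tlr2 and Tlr8, which rose there too, had no such match, and neither did Tlr3, Tlr5 and Tlr6, which did not pass. Each is written 5′ to 3′ on the strand of its gene, with the match in capitals: Tlr13 at chrX:106143025-106143203 (plus strand, 179 bases), Tlr9 at chr9:106222348-106222597 (plus strand, 250 bases) and Tlr1 at chr5:64933564-64933808 (minus strand, 245 bases).
Tlr13: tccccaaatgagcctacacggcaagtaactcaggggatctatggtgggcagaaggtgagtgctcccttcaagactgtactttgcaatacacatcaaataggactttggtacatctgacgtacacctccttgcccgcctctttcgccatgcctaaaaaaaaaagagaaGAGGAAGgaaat
Tlr9: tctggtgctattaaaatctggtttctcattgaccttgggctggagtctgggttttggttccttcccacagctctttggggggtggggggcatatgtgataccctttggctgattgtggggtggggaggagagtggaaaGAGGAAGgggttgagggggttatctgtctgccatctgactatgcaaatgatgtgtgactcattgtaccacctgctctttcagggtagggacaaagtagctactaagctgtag
Tlr1: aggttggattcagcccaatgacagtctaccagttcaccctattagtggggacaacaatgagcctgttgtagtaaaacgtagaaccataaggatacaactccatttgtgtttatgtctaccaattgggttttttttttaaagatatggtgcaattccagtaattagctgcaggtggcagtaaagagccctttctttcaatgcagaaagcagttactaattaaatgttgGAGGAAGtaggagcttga
The capitals mark GAGGAAG, which began 83 bases before the RefSeq start in Tlr13, 112 bases before it in Tlr9 and 23 bases before it in Tlr1. The interferon-stimulated response element (ISRE) was found in Tlr6 and in 3.46% of all genes. AANNGAAA, a shorter element of interferon regulatory factors that every ISRE match also holds, was found in Tlr1, Tlr2, Tlr3 and Tlr6 and in 23.9% of all genes. The NF-κB consensus was found in Tlr2 and Tlr3 (8.23% of genes), and TGANTCA, the AP-1 site, in Tlr9 (7.82%). Each match is a description of letters and not evidence of binding, and any link of the letters to the fold changes was not tested. Tlr4 and Tlr7 were not among the genes searched, and Tlr7 also rose without IFN-γ tumor 3.

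Totals on genes ran from 15759300 to 17559680 counts per tumor, and 3 counts were worth between 0.169 and 0.187 CPM, the unit used throughout (counts over library size after TMM scaling), counting error only. IFN-γ tumor 3 stood apart from the other IFN-γ tumors. Across all 15114 genes tested in the 6 tumors, edgeR's quasi-likelihood test with Benjamini-Hochberg adjustment called 17 genes at 0.05, against 493 of 15487 when this tumor was left out and 6 to 11 when any of the other tumors was. The receptors are therefore given for all 6 tumors and for the 5 left when it is removed. This tumor was picked from these same data, and its removal lowered the standard error of every receptor. The p-values in the 5 tumors are therefore likely too small. Values of a group are listed in the order of tumors 1, 2 and 3. Of the markers for the labelled colon carcinoma cells, Cdx2 had 0 counts in every tumor and Krt8 was at 0.185 to 12.04 CPM, whereas Krt20 was at 113 to 270 CPM. All 10 receptor genes passed the filter on low counts.

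Summed over the 10 receptors, expression was 256, 299 and 279 CPM in the control tumors, against 427, 428 and 262 CPM in the IFN-γ group. IFN-γ tumors 1 and 2 were well above the controls, and IFN-γ tumor 3 lay within them. For 9 of the 10 genes, all but Tlr5, both IFN-γ tumors 1 and 2 exceeded every control, which held for 18.2% of all genes tested. IFN-γ tumor 3 was the lowest IFN-γ tumor for each of the 10, as it was for 38.9% of all genes. It was below every control for 6 of them, within the control range for 2 and above it for 2. The share of all genes in each of these positions was not computed.

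In all 6 tumors, 0 of the 10 receptors passed the adjusted threshold of edgeR's quasi-likelihood test, where 0.0794% of all genes were called higher and 0.0331% lower. By DESeq2 1 passed (Tlr2; 0.822% of genes called higher), by limma-voom 0 passed (0.0662%), and by edgeR without the filter on low counts 2 passed (Tlr2 and Tlr13; 0.558%). At an unadjusted p under 0.05 edgeR gave 4 receptors, Tlr1, Tlr2, Tlr7 and Tlr13, all higher in the IFN-γ group, against 5.74% of all genes in that direction. Without IFN-γ tumor 3, 6 rose (Tlr1, Tlr2, Tlr7, Tlr8, Tlr9 and Tlr13) and 0 fell, where 2.46% of all genes were called higher and 0.723% lower. DESeq2 and limma-voom on these 5 tumors called the same 6, where 4.4% and 2.72% of all genes were called higher. These tools used the same libraries and are no independent check. The tumor left out was picked from these data and was the lowest IFN-γ tumor for each of the 10. Leaving it out therefore raised every fold change. Log2 fold changes were above 0 for 9 of the 10 with and without IFN-γ tumor 3, as for 50.4% and 46.9% of all genes tested. Their median over the 10 was 0.56 with it and 0.79 otherwise, and over all genes tested 0.0015 and -0.016. Leaving out any other tumor called 0 of the 10.

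Markers of macrophages and monocytes moved in the same tumors. The summed level of the 12 markers was 3814, 4256 and 4553 CPM in the control tumors, against 5879, 7057 and 4220 CPM in the IFN-γ group. The mean log2 level of the markers was 0.61 higher in IFN-γ tumors 1 and 2 than in the controls, and 0.03 lower in IFN-γ tumor 3 (-0.03). Mrc1, a member of this list, was instead lower in every IFN-γ tumor than in every control. The pattern was not particular to macrophages. Markers of T cells, NK cells and conventional dendritic cells differed by 0.71, 0.71 and 0.54 in IFN-γ tumors 1 and 2. In IFN-γ tumor 3 they differed by -0.73, -0.70 and -0.16. B cell and endothelial markers were lower in both. The part of any of these cells in the receptor results was not tested.

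**Figure D1:**
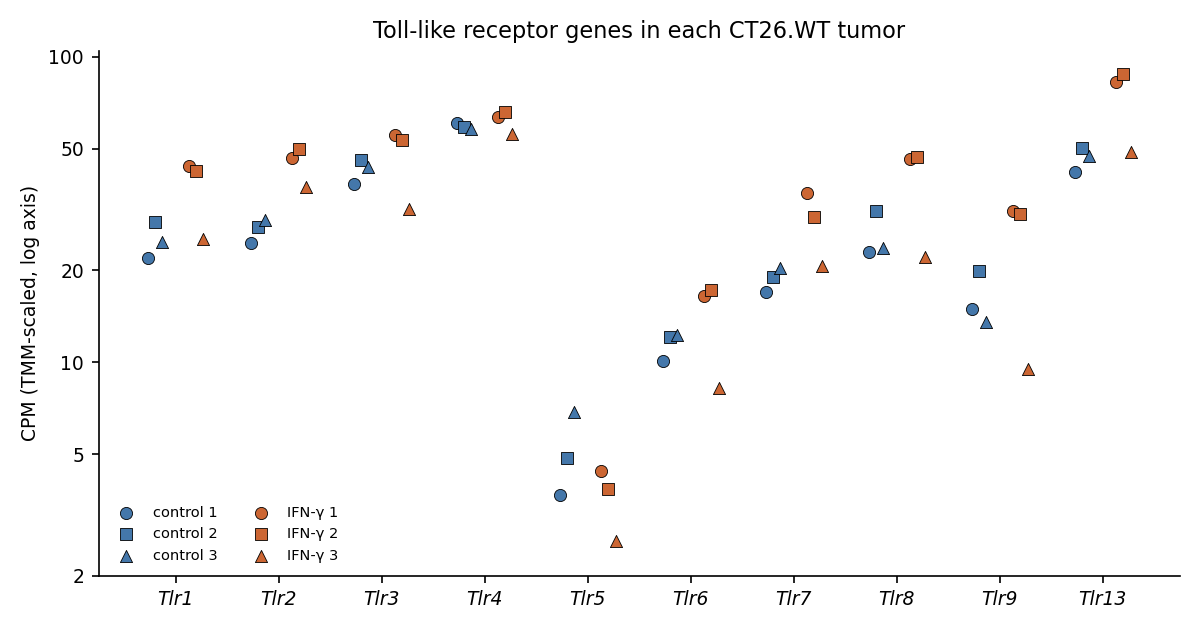
Level of each of the 10 Toll-like receptor genes in each tumor, as CPM on a log axis, with 1 point per tumor for the 3 control (blue) and 3 IFN-γ (orange) tumors. The circles and squares of IFN-γ tumors 1 and 2 lie above every control for each gene but Tlr5, and IFN-γ tumor 3 is the lowest IFN-γ tumor in each of the 10.

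Gene positions are those of GENCODE M21 on GRCm38, the assembly that mm10 denotes. Tlr2 (chr3:83836272-83841767, minus strand) encodes the shared partner of the receptors for bacterial lipopeptides. Its level was 24.6, 27.6 and 29.1 CPM in the control tumors, against 46.7, 49.97 and 37.4 CPM in the IFN-γ group. Every IFN-γ tumor was above every control, and Tlr2 was the receptor with the widest gap between groups. On the log2 scale the fold change was 0.72 (SE 0.12, adjusted p = 0.114, edgeR's quasi-likelihood test) in all 6 tumors. Without IFN-γ tumor 3 it was 0.82 (SE 0.10, adjusted p = 0.00964, edgeR). By unadjusted p in all 6 tumors, Tlr2 was in place 47 of the 15114 genes.

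Tlr1 (chr5:64924679-64933563, minus strand) pairs with Tlr2 to recognize triacylated lipopeptides. It was at 21.9, 28.7 and 24.8 CPM in the control tumors, against 43.9, 42.3 and 25.3 CPM in the IFN-γ group. Both IFN-γ tumors 1 and 2 were clear of the controls, while IFN-γ tumor 3 lay between control tumors 3 and 2. The fitted log2 fold change was 0.57 (SE 0.21, adjusted p = 0.396, edgeR) in all 6 tumors and 0.77 (SE 0.12, adjusted p = 0.0192, edgeR) without IFN-γ tumor 3.

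Tlr6 (chr5:64952031-64960097, minus strand), which pairs with Tlr2 for diacylated lipopeptides, was at 10.1, 12.1 and 12.3 CPM in the control tumors, against 16.4, 17.2 and 8.21 CPM in the IFN-γ group. IFN-γ tumor 3 was the lowest of all 6 and the other IFN-γ tumors the highest. The estimated log2 fold change was 0.28 (SE 0.26, adjusted p = 0.782, edgeR) in all 6 tumors and 0.54 (SE 0.14, adjusted p = 0.0902, edgeR) in the 5, and neither passed. Tlr1 and Tlr6 are neighbours on chromosome 5 with similar sequence. Of the 50-base windows along their transcripts, 13.6% of those of Tlr1 occur in Tlr6 and 12.3% of those of Tlr6 in Tlr1, so reads there could have been split or dropped by the counting.

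Tlr4 (chr4:66827584-66930284, plus strand), the receptor for lipopolysaccharide, ranged over all 6 tumors from 56.0 to 66.1 CPM. It was at 60.5, 59.0 and 58.0 CPM in the control tumors, against 63.4, 66.1 and 56.0 CPM in the IFN-γ group. Both IFN-γ tumors 1 and 2 were slightly above the controls and IFN-γ tumor 3 slightly below. On the log2 scale the fold change was 0.06 (SE 0.08, adjusted p = 0.849, edgeR) in all 6 tumors and 0.12 (SE 0.07, adjusted p = 0.485, edgeR) without IFN-γ tumor 3.

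Tlr5 (chr1:182954788-182976044, plus strand), the receptor for bacterial flagellin, was at 3.68, 4.84 and 6.85 CPM in the control tumors, against 4.41, 3.84 and 2.59 CPM in the IFN-γ group. These values, the lowest of the 10 receptors per exonic length, rest on 42 to 120 counts per tumor. The groups overlapped, with IFN-γ tumor 3 below every control. Its log2 fold change was the only one below 0, at -0.50 (SE 0.30, adjusted p = 0.617, edgeR) in all 6 tumors and -0.32 (SE 0.29, adjusted p = 0.661, edgeR) in the 5.

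Of the endosomal receptors, Tlr13 (chrX:106143204-106160493, plus strand), which recognizes bacterial ribosomal RNA, had the highest control level per exonic length. Its level was 41.8, 50.2 and 47.4 CPM in the control tumors, against 82.8, 87.7 and 48.6 CPM in the IFN-γ group. Both IFN-γ tumors 1 and 2 were far above the controls and IFN-γ tumor 3 was among them. The fitted log2 fold change was 0.65 (SE 0.20, adjusted p = 0.352, edgeR) in all 6 tumors. Without IFN-γ tumor 3 it was 0.87 (SE 0.09, adjusted p = 0.00878, edgeR), the smallest adjusted p of the 10 receptors.

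Tlr7 (chrX:167304929-167330558, minus strand), a receptor for single-stranded RNA, was at 16.9, 19.0 and 20.3 CPM in the control tumors, against 35.9, 29.8 and 20.6 CPM in the IFN-γ group. The groups did not overlap, but IFN-γ tumor 3 exceeded the highest control by little. Tlr2 and Tlr7 were the 2 receptors without overlap between groups, a separation with higher IFN-γ values that 7.63% of all genes tested had. For Tlr7 the log2 fold change was 0.62 (SE 0.19, adjusted p = 0.352, edgeR) in all 6 tumors and 0.80 (SE 0.13, adjusted p = 0.0192, edgeR) in the 5.

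Tlr8 (chrX:167242696-167264329, minus strand), next to Tlr7 on the X chromosome and also an RNA receptor, was at 22.9, 31.3 and 23.6 CPM in the control tumors, against 46.3, 47.0 and 22 CPM in the IFN-γ group. The lowest and the highest values of the 6 tumors both belonged to the IFN-γ group. The estimated log2 fold change was 0.57 (SE 0.27, adjusted p = 0.525, edgeR) in all 6 tumors and 0.84 (SE 0.14, adjusted p = 0.0215, edgeR) without IFN-γ tumor 3.

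Tlr9 (chr9:106222598-106226883, plus strand), the receptor for unmethylated CpG DNA, had the widest spread within the IFN-γ group relative to its level. It was at 14.9, 19.9 and 13.6 CPM in the control tumors, against 31.4, 30.6 and 9.51 CPM in the IFN-γ group. The mean of IFN-γ tumors 1 and 2 was 1.92 times the control mean, and IFN-γ tumor 3 was at 0.590 times it. On the log2 scale the fold change was 0.56 (SE 0.39, adjusted p = 0.683, edgeR) in all 6 tumors and 0.93 (SE 0.16, adjusted p = 0.0241, edgeR) in the 5.

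Tlr3 (chr8:45395665-45411080, minus strand), the receptor for double-stranded RNA, which signals through Ticam1, was at 38.3, 45.9 and 43.4 CPM in the control tumors, against 55.6, 53.3 and 31.7 CPM in the IFN-γ group. IFN-γ tumor 3 was again below every control and the other IFN-γ tumors above. The fitted log2 fold change was 0.14 (SE 0.19, adjusted p = 0.861, edgeR) in all 6 tumors and 0.35 (SE 0.10, adjusted p = 0.110, edgeR) in the 5, and it was -0.0012 when IFN-γ tumor 1 was left out instead. Of its exonic bases, 381 overlap Gm45542 on the other strand, which had 10 counts in the 6 tumors together.

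**Figure D2:**
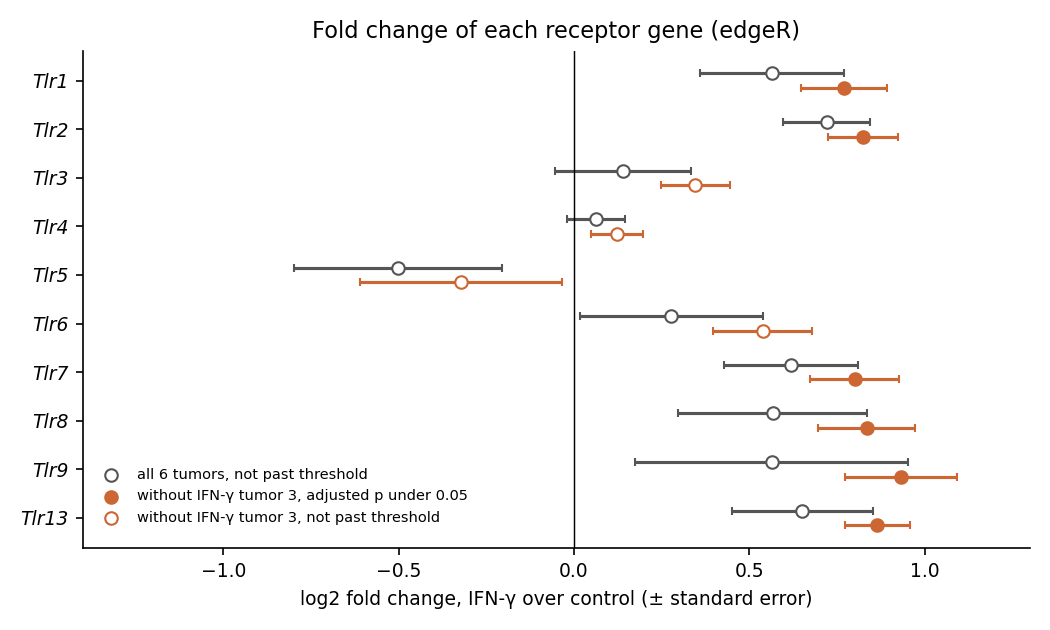
Log2 fold change of each receptor gene, IFN-γ over control, with bars of 1 standard error from edgeR's quasi-likelihood fit, for all 6 tumors (grey) and for the 5 without IFN-γ tumor 3 (orange, filled where the adjusted p is under 0.05). With all 6 tumors 0 genes passed the adjusted threshold, and without IFN-γ tumor 3 the 6 that passed lay between 0.77 and 0.93.

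The receptors differed widely in level. Per kilobase of annotated exon, the mean control level was 10.8 CPM per kb for Tlr13, 10.7 for Tlr4, 9.0 for Tlr2, 8.17 for Tlr3, 7.5 for Tlr1, 7.24 for Tlr8, 4.64 for Tlr9, 4.59 for Tlr7, 3.08 for Tlr6 and 1.07 for Tlr5. The control tumors of Tlr13 and Tlr4 overlapped in this order, as did those of Tlr2 and Tlr3, Tlr3 and Tlr1, Tlr1 and Tlr8, and Tlr9 and Tlr7. Steps without overlap separated Tlr4 from Tlr2, Tlr8 from Tlr9, Tlr7 from Tlr6 and Tlr6 from Tlr5. In the IFN-γ group the levels per kilobase were 17.0 ± 4.9 for Tlr13 (SD, n = 3), 14.8 ± 2.2 for Tlr2 (SD, n = 3) and 11.1 ± 0.94 for Tlr4 (SD, n = 3). The mean of Tlr2 was thus below that of Tlr4 in the control group and above it in the IFN-γ group.

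**Figure D3:**
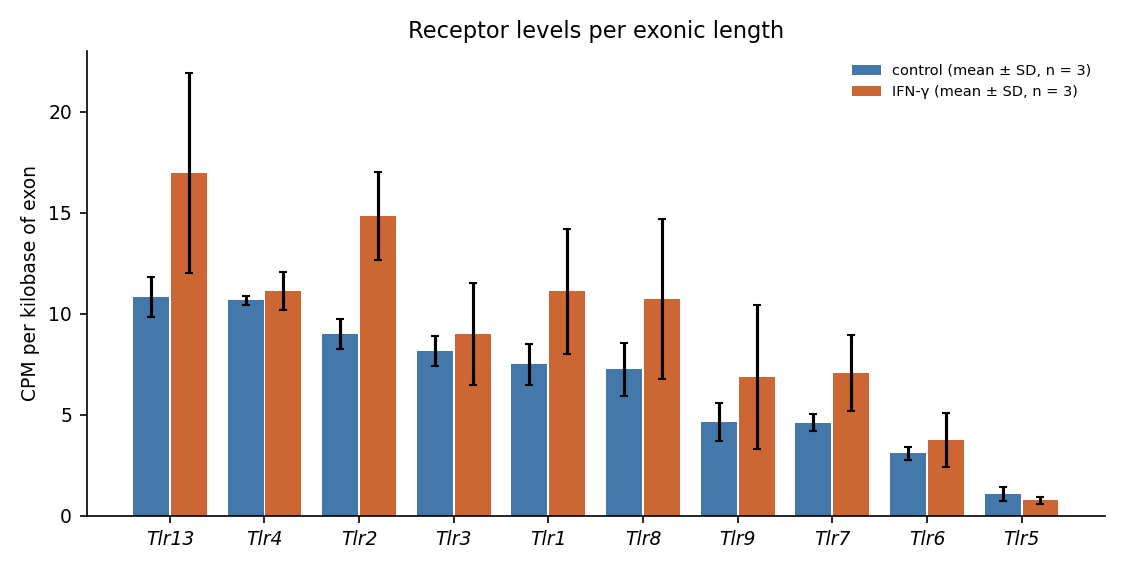
Level of each receptor gene as CPM per kilobase of annotated exon, ordered by the control mean, with bars for the mean and SD of the 3 tumors of each group. Tlr13 (10.8) and Tlr4 (10.7) head the control order and Tlr5 (1.07) ends it.

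Ratios within a tumor were computed as differences of log2(CPM + 0.5). Tlr2 over Tlr4 was -1.28, -1.08 and -0.98 in the control tumors, against -0.44, -0.40 and -0.58 in the IFN-γ group. All 3 IFN-γ tumors were above all controls, including IFN-γ tumor 3. Of the partners of Tlr2, Tlr6 over Tlr2 was -1.24, -1.16 and -1.21 in the control tumors, against -1.48, -1.51 and -2.12 in the IFN-γ group, so that every IFN-γ tumor was lower. Tlr1 over Tlr6 was 1.07, 1.21 and 0.98 in the control tumors, against 1.39, 1.27 and 1.56 in the IFN-γ group, again without overlap. Tlr1 over Tlr2, Tlr7 over Tlr8, Tlr7 over Tlr9 and Tlr5 over Tlr4 overlapped between the groups. These 7 ratios share genes and are not independent, and the share of all gene pairs without overlap was not computed. They were not tested, since 3 tumors against 3 allow no two-sided exact permutation p below 0.1.

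Each receptor was also set against the mean log2 level of the 12 macrophage and monocyte markers in the same tumor. Relative to these, Tlr2 was 0.31 higher and Tlr13 0.21 higher in the IFN-γ group on the log2 scale, without overlap between groups. Tlr3 differed by -0.30 and Tlr5 by -0.84, also without overlap. The share of all genes that separate in this way was not computed, and these differences were not tested. Tlr4 differed by -0.34, with IFN-γ tumor 3 within the controls and the other IFN-γ tumors below them. For Tlr1, Tlr6, Tlr7, Tlr8 and Tlr9 the groups overlapped, with differences of 0.13, -0.19, 0.18, 0.10 and -0.0089. Within the IFN-γ group, Tlr9 against the markers was 0.33 above the control mean in tumors 1 and 2 and 0.68 below it in tumor 3 (-0.68).

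**Figure D4:**
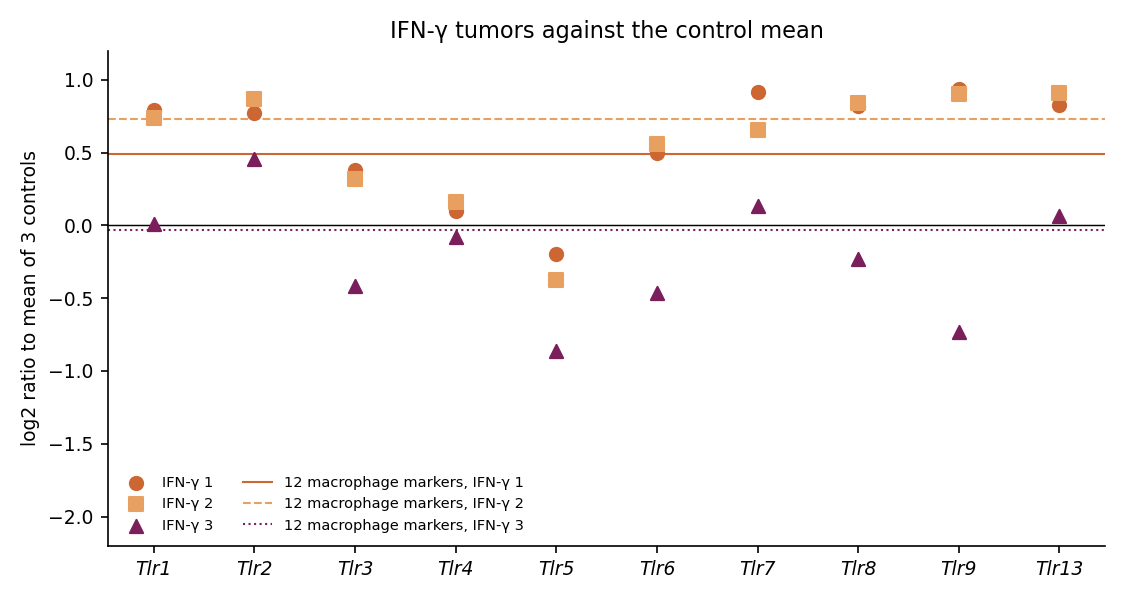
Log2 ratio of each receptor gene to its control mean, shown for each IFN-γ tumor, on log2(CPM + 0.5), with horizontal lines for the mean of the 12 macrophage and monocyte markers in each tumor. IFN-γ tumor 3 runs from -0.86 for Tlr5 to 0.46 for Tlr2, and IFN-γ tumors 1 and 2 are above 0 for the 9 genes other than Tlr5.

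The 3 genes whose log2 level over the 6 tumors was most like that of the summed receptors were Rassf4 (Pearson r = 0.998), Adap1 (0.997) and Ptpn6 (0.995), of 11320 genes compared. Tlr13 was most like Cd180 (r = 0.997) and Sirpa, a receptor of macrophages (r = 0.997). Tlr8 was most like Plekho2 (r = 0.998), followed by Unc93b1 (r = 0.997), which carries the endosomal receptors to their compartment. For Tlr3 they were Syk, a kinase of immune receptors, and Ptprc, the pan-leukocyte antigen (r = 0.994 for Ptprc). Tlr4 was most like Ank2 (r = 0.996), and Tlr2 like Casp12 (r = 0.995). Among the receptors themselves, Tlr1 and Tlr13 were the closest pair (r = 0.987), and Tlr2 and Tlr5 had r = -0.27. The 6 points share the contrast between IFN-γ tumor 3 and the others of its group, and genes compared in this way are not independent.

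Among 81 genes that work with the receptors, 78 were tested. By edgeR 0 of the 78 passed in all 6 tumors, and without IFN-γ tumor 3, 14 rose and 1 fell, against the same shares of all genes as for the receptors. In all 6 tumors 15 had an unadjusted p under 0.05 by edgeR, as 10.2% of all genes did in either direction, DESeq2 called 4 and limma-voom 0.

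Co-receptors and genes for ligand handling held 2 that rose of 8 tested in the 5 tumors, and the list's median log2 fold change was 0.34 with IFN-γ tumor 3 and 0.49 otherwise. Cd180, a relative of Tlr4 at the cell surface, was at 13.3, 18.2 and 16.9 CPM in the control tumors, against 39.2, 40.3 and 18.2 CPM in the IFN-γ group. The log2 difference was 1.01 (adjusted p = 0.307, edgeR) in all 6 tumors and 1.29 (SE 0.14, adjusted p = 0.00878, edgeR) in the 5, and for its partner Ly86 it was 0.57 and 0.72 (adjusted p = 0.361 and 0.0347, edgeR). Cd14, which hands lipopolysaccharide to the Tlr4 complex, was at 85.3, 86.6 and 82.1 CPM in the control tumors, against 76.7, 77.1 and 93.6 CPM in the IFN-γ group. IFN-γ tumors 1 and 2 were below the controls for Cd14 and IFN-γ tumor 3 above them. This was the opposite order to that of Tlr3, Tlr4, Tlr6, Tlr8 and Tlr9, though not of the other receptors. For Cd14 neither -0.04 in all 6 tumors nor -0.15 in the 5 passed. Lyn (0.48) and Hmgb1 (-0.0032) did not pass in the 5 tumors either.

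Of the 10 genes for trafficking and folding, 3 rose in the 5 tumors, and the medians were 0.14 and 0.22. Unc93b1 was at 133, 160 and 133 CPM in the control tumors, against 223, 226 and 131 CPM in the IFN-γ group. IFN-γ tumor 3 was again the lowest of the 6 and the other IFN-γ tumors the highest. Its log2 fold change was 0.45 (adjusted p = 0.491, edgeR) in all 6 tumors and 0.65 (SE 0.10, adjusted p = 0.0162, edgeR) in the 5. Lgmn and Ctss, proteases that cleave endosomal receptors, changed by 0.50 and 0.91 in the 5 tumors (adjusted p = 0.0185 and 0.0110, edgeR) with values of 0.42 and 0.72 in all 6 that did not pass (adjusted p = 0.248 and 0.299, edgeR). The chaperone Hsp90b1 (0.10) and the protease Ctsb (0.28) did not pass.

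Adaptors and proximal kinases lay lower than the receptors, with median log2 fold changes of -0.05 and -0.07 over 18 genes. The 1 that rose in the 5 tumors was Pik3ap1, which links the receptors to phosphoinositide kinase, by 0.75 (adjusted p = 0.0219, edgeR), against 0.51 in all 6 (adjusted p = 0.524, edgeR). Irak1 (-0.11) and Tab2 (0.03), the most abundant of the list, did not pass in the 5 tumors. Myd88 and Ticam1 were chosen for mention after their values were seen. Myd88 was at 44.0, 45.4 and 45.5 CPM in the control tumors, against 49.8, 45.0 and 38.3 CPM in the IFN-γ group, and the log2 difference for Ticam1 was -0.08 in all 6 tumors (adjusted p = 0.861, edgeR).

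Of 10 transcription factors, 3 rose in the 5 tumors, with medians of 0.04 and 0.11 over the list. Irf7, which drives type I interferon genes, was at 178, 186 and 177 CPM in the control tumors, against 261, 335 and 125 CPM in the IFN-γ group. IFN-γ tumor 3 was clearly below the controls and the other IFN-γ tumors clearly above. The log2 difference for Irf7 was 0.41 (adjusted p = 0.691, edgeR) in all 6 tumors and 0.71 (adjusted p = 0.0161, edgeR) in the 5. Spi1, which encodes PU.1, was at 42.6, 47.2 and 48.0 CPM in the control tumors, against 62.1, 68.9 and 44.0 CPM in the IFN-γ group, with 0.35 (adjusted p = 0.494, edgeR) and 0.50 (adjusted p = 0.0250, edgeR). Irf5 changed by 0.55 in the 5 tumors (adjusted p = 0.0491, edgeR), against 0.41 in all 6 (adjusted p = 0.445, edgeR), and Nfkb1 and Nfkb2 had 0.07 and -0.12 and did not pass.

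Of 13 negative regulators tested, 3 rose in the 5 tumors, and the medians were 0.10 and 0.16. Nfkbia, the inhibitor of NF-κB, changed by 0.43 (adjusted p = 0.0363, edgeR), the repressor Atf3 by 1.28 (adjusted p = 0.0398, edgeR) and the phosphatase Ptpn6 by 0.63 (adjusted p = 0.0184, edgeR). In all 6 tumors the values were 0.34, 0.97 and 0.44, and none of these 3 passed. Sigirr (-0.24) and Il1rl1 (-0.44) did not pass in the 5 tumors.

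Of 19 target cytokines, chemokines and related genes tested, 2 rose and 1 fell in the 5 tumors, with medians of 0.42 and 0.70. Ccl4, a chemokine of myeloid cells, changed by 1.05 and the costimulatory receptor Cd40 by 1.02 (adjusted p = 0.0452 for both, edgeR). In all 6 tumors their values were 0.72 and 0.62, which did not pass (adjusted p = 0.552 and 0.702, edgeR). Ptgs2, the inducible cyclooxygenase, was at 153, 125 and 121 CPM in the control tumors, against 90.9, 89.3 and 119 CPM in the IFN-γ group. All IFN-γ tumors were below all controls, and the log2 difference was -0.41 (adjusted p = 0.369, edgeR) in all 6 tumors and -0.56 (adjusted p = 0.0327, edgeR) in the 5. The chemokine Cxcl9 was at 118, 289 and 210 CPM in the control tumors, against 465, 557 and 165 CPM in the IFN-γ group, and its 1.3 in the 5 tumors did not pass (adjusted p = 0.0524, edgeR). Ccl2 had -0.10 in the 5 tumors and did not pass.

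**Figure D5:**
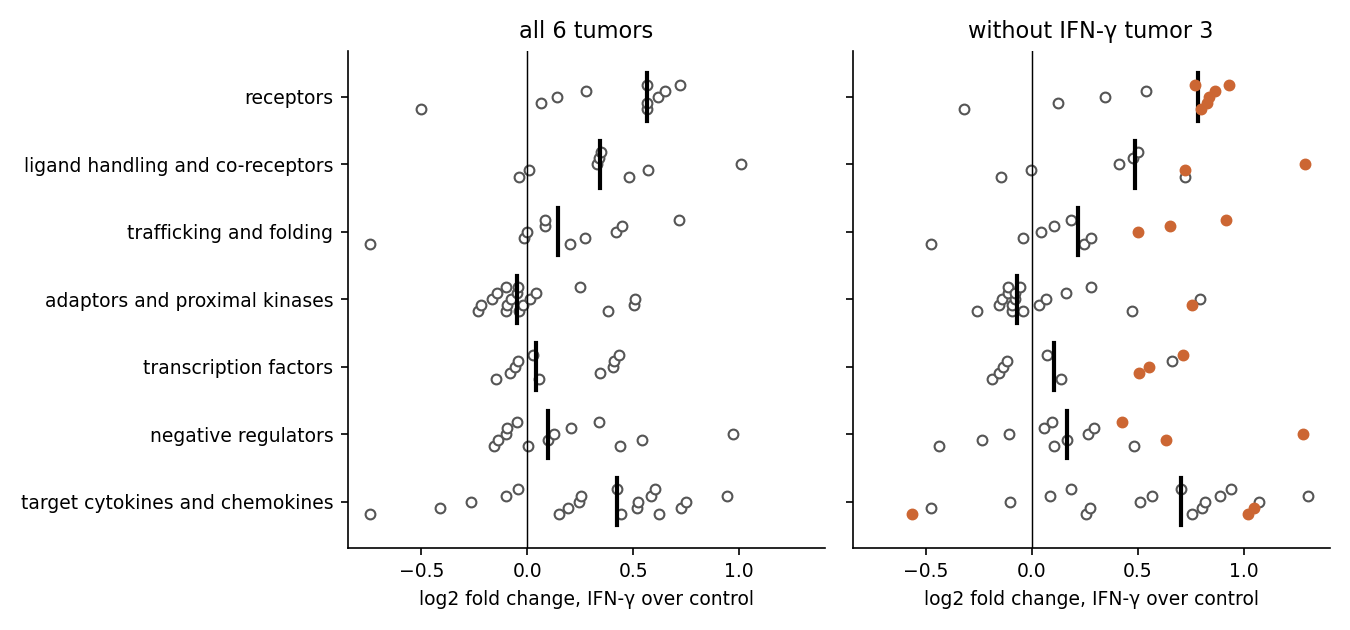
Log2 fold changes, IFN-γ over control, of the receptor genes and of the genes in the 6 lists that work with them, 1 point per gene, for all 6 tumors (left) and for the 5 without IFN-γ tumor 3 (right), with a vertical bar at each list's median and filled points for genes with an adjusted p under 0.05. Receptors have a median of 0.56 and 0.79, adaptors and proximal kinases of -0.05 and -0.07.

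Markers of the cells that could carry the receptors were listed as well, and their counts stand beside 2.46% of all genes called higher by edgeR in the 5 tumors, and 10.2% and 16.3% at an unadjusted p under 0.05 in the 6 and the 5. Of the 12 macrophage and monocyte markers, 0 passed by edgeR in all 6 tumors and 8 rose in the 5, with medians of 0.49 and 0.64. In all 6 tumors 9 had an unadjusted p under 0.05 by edgeR, of which 1 was lower in the IFN-γ group. DESeq2 called 3 there, where 0.822% of all genes were higher, and limma-voom called 0. Lyz2, C1qa and C1qb changed by 0.69, 0.68 and 0.61 in the 5 tumors, and Ccr2, a monocyte chemokine receptor, by 1.2 (adjusted p = 0.00964, edgeR). In all 6 tumors these 4 had 0.50, 0.55, 0.48 and 0.91 and did not pass. Of the conventional dendritic cell markers 0 of 8 passed by edgeR in either set (2 and 4 at an unadjusted p under 0.05, and 1 by DESeq2 and 1 by limma-voom in the 5 tumors), with summed levels of 37.4 to 55.3 CPM in the controls and 41.7 to 75.7 CPM in the IFN-γ group and medians of 0.40 and 0.51. Plasmacytoid dendritic cell markers summed to 14.0 to 23.6 CPM and 20.1 to 26.7 CPM, and 0 of 5 passed by edgeR, DESeq2 or limma-voom, with 0 at an unadjusted p under 0.05 by edgeR. Neutrophil markers summed to 29.7 to 38 CPM and 36.8 to 47.6 CPM. Of 6 tested in the 5 tumors, 1 rose (Csf3r, 0.74, adjusted p = 0.0143, edgeR, against 0.56 and adjusted p = 0.371 in all 6), while 2 of the 6 had a log2 fold change above 0 and the list's medians were 0.16 in all 6 tumors and -0.26 in the 5. Ly6g, the defining marker, was at or under 3 counts in every tumor. B cell markers were low, at 7.99 to 13.2 CPM and 6.55 to 8.05 CPM, and 0 of 4 passed by any of these tools, with 2 at an unadjusted p under 0.05 by edgeR, both lower in the IFN-γ group, and medians of -1.35 in both sets.

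T cell markers summed to 41.1 to 59.8 CPM in the control tumors, against 83.5, 95.2 and 32.8 CPM in the IFN-γ group. NK cell markers summed to 33.6 to 58.0 CPM, against 87.2, 93.1 and 28.1 CPM. In both lists the sum in IFN-γ tumor 3 was below that of every control. Of 5 NK cell markers, 1 rose in the 5 tumors, Klrk1, an activating receptor of NK and T cells (1.09, adjusted p = 0.0123, edgeR), against 0.71 in all 6 (adjusted p = 0.602, edgeR). In the 5 tumors 0 of the 6 T cell markers passed by edgeR (4 at an unadjusted p under 0.05, 3 by DESeq2, 1 by limma-voom). Of the endothelial markers 0 of 5 passed by edgeR in either set, and 0 of 5 had a log2 fold change above 0. Their medians were -0.25 in all 6 tumors and -0.26 in the 5. In each set 2 had an unadjusted p under 0.05 by edgeR, both lower in the IFN-γ group. DESeq2 called 1 in each set and limma-voom 0. Of the 6 fibroblast markers 0 passed by any of these tools in either set, with 0 at an unadjusted p under 0.05 by edgeR. Their medians were 0.12 and 0.25. Among adipocyte markers Plin1, Cidec and Lep rose in the 5 tumors, with medians of 2.26 in all 6 tumors, where 0 passed by edgeR (4 at an unadjusted p under 0.05, 3 by DESeq2, 0 by limma-voom), and 2.20 in the 5, and IFN-γ tumor 3 was above every control for each of the 3. Of the colon carcinoma and epithelial markers Krt20 fell in the 5 tumors (-0.49, adjusted p = 0.0247, edgeR) and was highest in IFN-γ tumor 3, with which its value turned to 0.05 (adjusted p = 0.979, edgeR). The part of these cell types in the receptor values was not tested.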

How the data were processed

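Total RNA of the 6 tumors was sequenced with standard Illumina libraries. The authors deposited 1 table of raw counts, whole numbers of reads for each gene without any scaling. Per the labels, reads were aligned with HISAT2 to mm10. The counting program, the annotation release and the use of strand are not given in the sources used here, so reads from a gene and an overlapping antisense gene cannot be told apart. The legends of the study give a smaller number of IFN-γ tumors for its RNA-seq plots than were deposited, without naming them.

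Counts were tested with edgeR 4.0.16 (R 4.3.3) on all genes: TMM factors, default filter on low counts, quasi-likelihood test, Benjamini-Hochberg adjustment and a threshold of 0.05. A standard error is the log2 fold change divided by the square root of F. CPM used TMM factors, and log2 levels a pseudocount of 0.5 CPM. Totals of 15759300 to 17559680 counts limit the precision of low genes. DESeq2 1.42.0, limma-voom (limma 3.58.1), other scalings and filters, a replicate block and leaving out each tumor were the alternatives. DESeq2 and limma-voom without IFN-γ tumor 3 were added after the data were seen. Scripts were tested on simulated data.

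Gene models and exonic lengths came from GENCODE M21 (GRCm38), which held 99.4% of the identifiers, and promoter sequences from RefSeq (GRCm38.p6). The receptors and the lists of pathway genes and markers were chosen with earlier results of these data known. From each list, the 3 genes of highest mean CPM and every gene past the threshold in either set of tumors could be named, and likeness was ranked by Pearson r of log2 levels among genes with a mean of at least 5 CPM. The result of 1 motif search is not reported here.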

Additional observations from a re-analysis of the deposited data

How the results depend on the processing

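Over all genes, 17 were called in the 6 tumors. The count was 11 with library size only, 191 by DESeq2 and 220 without a filter on low counts, and 6 to 493 when 1 tumor was left out, the highest being without IFN-γ tumor 3. For the receptors it was 1 by DESeq2 (Tlr2), 2 without the filter (Tlr2 and Tlr13) and 0 to 6 with 1 tumor left out. For the pathway genes it was 4 by DESeq2, 5 without the filter and 0 to 15 with 1 tumor left out. Without IFN-γ tumor 3, DESeq2 called 828 genes, 6 receptors and 26 pathway genes, and limma-voom 529, 6 and 17. RLE factors, limma-voom on all 6 tumors and a minimum of 1 CPM in 3 tumors called 0 receptors and kept the count over all genes within 1.5 times. The cause of these differences was not tested.

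Tumors with the same replicate number share only a number: their deviations from the group means had correlations of -0.24, -0.0047 and -0.22. With the replicate block, 7 genes and 0 receptors were called.

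Of 150 log2 fold changes of receptors under the alternatives, 128 kept direction and side of the threshold, 21 passed only there, and 1 reversed: Tlr3 ran from -0.0012 without IFN-γ tumor 1 to 0.35 without IFN-γ tumor 3. Most of the 21 came from leaving out IFN-γ tumor 3, with 6 receptors by each of edgeR, DESeq2 and limma-voom. The rest were Tlr2 by DESeq2 on all 6 tumors, and Tlr2 and Tlr13 without the filter on low counts. With 3 tumors a group and IFN-γ tumor 3 apart, a receptor that missed the threshold cannot be called unchanged.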

Other observations

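Tlr11 and Tlr12, mouse receptors for protozoan profilin that lie outside the rule used here, had mean control levels of 0.644 and 2.07 CPM per kilobase of exon. Tlr11 was at 1.5, 1.52 and 3.31 CPM in the control tumors, against 5.22, 6.10 and 2.78 CPM in the IFN-γ group. IFN-γ tumor 3 lay within the controls and the other IFN-γ tumors above them. The log2 fold change was 1.15 (SE 0.41, adjusted p = 0.392, edgeR's quasi-likelihood test) in all 6 tumors and 1.41 (SE 0.36, adjusted p = 0.0808, edgeR) without IFN-γ tumor 3. Tlr12 was at 4.43, 11.4 and 3.88 CPM in the control tumors, against 13.4, 13.4 and 8.52 CPM in the IFN-γ group. Control tumor 2 stood above the other controls for Tlr12, and the groups overlapped. Its log2 fold change was 0.84 (SE 0.40, adjusted p = 0.527, edgeR) and 1.01 (SE 0.40, adjusted p = 0.251, edgeR). For both genes IFN-γ tumor 3 was the lowest IFN-γ tumor.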
